A study of Danio rerio with 6 samples.

Results

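Veins, lymphatic vessels and the endothelial cells that clear waste from the blood share a set of genes, and 7 of them were followed here: *stab1*, *stab2*, *lyve1b*, *mrc1a*, *dab2*, *nr2f2* and *prox1a*. They were taken by gene symbol from the deposited table, where each of the 7 matched 1 of 32057 genes. In the zebrafish embryo the first veins form next to the dorsal aorta, and lymphatic vessels later sprout from venous endothelium. Venous and lymphatic endothelial cells of the fish take up macromolecules from the blood through scavenger receptors, a task that sinusoidal endothelium of the liver performs in mammals. Nr2f2 (COUP-TFII) is a nuclear receptor that promotes venous identity in the mouse, and Prox1 is the homeobox factor that specifies lymphatic endothelium.

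The samples were EGFP+ cells sorted at 28 hpf (hours post fertilization) from Tg (*fli1a*: EGFP) zebrafish embryos, whose EGFP is under the promoter of *fli1a*, a gene of endothelial cells. The control MO group held 3 samples from embryos injected with a standard control morpholino, and the *nlrc3* MO group held 3 samples from embryos injected with a splice-modifying morpholino against *nlrc3*, at a higher concentration than the control. All 6 samples carried the same transgene, and *fli1a* is also active in other cells such as cranial neural crest derivatives and some blood cells. The study compared the groups to find what *nlrc3*, an NLR family gene, does in the endothelium from which blood stem and progenitor cells emerge.

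Levels are given in FPKM, fragments scaled by transcript length and by the size of the library. The targeted gene *nlrc3* had 0.70 to 1.09 FPKM without the knockdown and 0.15 to 0.26 FPKM with it. Added up over all genes, FPKM came to 524846 to 525567 per control MO sample and 678620 to 687387 per *nlrc3* MO sample, of which 14 haemoglobin genes took 15.6% to 15.7% and 34.5% to 34.8%. Differences were tested by limma on log2(FPKM + 0.1) over 15155 genes, and a fold change on this scale understates the change of low genes. Over all tested genes the log2 fold change had a median of -0.22. Rescaled to the median of the gene ratios it was -0.013, and rescaled to equal sums (TPM) it was -0.60. Called genes had an adjusted p (Benjamini-Hochberg) under 0.05 together with a change of over 2 times upward or to less than 0.5 times. The study describes the samples as biological replicates but their embryo pools are not detailed in the sources used here, so p-values rest on the spread between these samples. The calls split into 741 higher and 3091 lower genes as deposited, 1164 and 2510 by median-of-ratios and 295 and 4620 as TPM. Relative to the mean of a list of pan-endothelial genes they were 1620 and 2168.

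The 7 genes did not move as a group. The transcripts of the transcription factors *nr2f2* and *prox1a* fell to 0.229 and 0.273 of their control level, while the scavenger receptor genes *stab2* and *mrc1a* stood at 1.03 and 1.02 times theirs and did not pass the test. *dab2* and *stab1* rose to 1.41 and 1.23 times the control level, and *lyve1b* fell to 0.710 times. Of the 7 genes 2 were called, both lower, where 25.3% of all tested genes were called, 20.4% lower and 4.89% higher. An adjusted p under 0.05 was reached by 5 of the 7, 3 lower and 2 higher, against 63.1% of all tested genes (42.9% lower and 20.2% higher). No overlap between the groups was seen for 6 of the 7, 3 lower and 3 higher, against 68.9% (46.1% lower and 22.8% higher). Together the 7 genes had 483 to 493 FPKM per control MO sample and 484 to 515 FPKM per *nlrc3* MO sample. In sorted bulk cells, fewer cells of a type and less RNA per cell cannot be told apart.

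**Figure D1:**
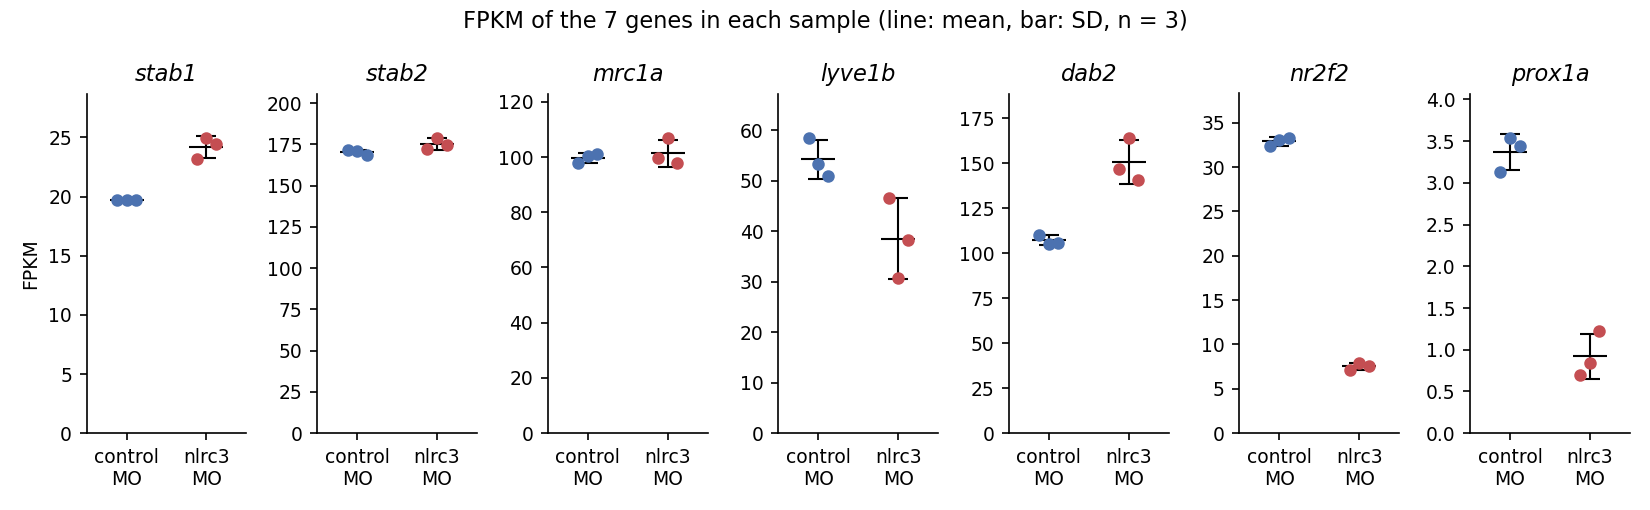
FPKM of the 7 genes (vertical axes, each from 0) in the 3 control MO samples (blue) and the 3 *nlrc3* MO samples (red), with the mean as a line and the SD as a bar. The *nr2f2* and *prox1a* points separate widely, from 32.9 to 7.54 and from 3.37 to 0.920 FPKM in the mean. The group means of *stab2* lie within 5 FPKM of each other, as do those of *mrc1a*.

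In the control MO samples the order of the mean levels was *stab2*, *dab2*, *mrc1a*, *lyve1b*, *nr2f2*, *stab1* and *prox1a*, and no neighbours in it overlapped. In the *nlrc3* MO samples *stab1* stood above *nr2f2*, the other places were kept, and again no neighbours overlapped. The most abundant, *stab2*, lay above 97.8% of the tested genes in controls and 98.0% after *nlrc3* knockdown. The lowest, *prox1a*, lay above 36.8% and 18.5% of them, and *nr2f2* above 87.8% and 63.3%.

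Stabilins are large transmembrane receptors that bind hyaluronan, oxidized lipoproteins and other waste for removal from the blood. Control MO samples 1 to 3 had 171.6, 171 and 169 FPKM of *stab2* (ENSDARG00000045748), against 172, 179 and 174 FPKM in the samples with the *nlrc3* morpholino. All 3 *nlrc3* MO samples were above the control MO samples, but by less than 1 FPKM for the nearest pair. The log2 fold change of *stab2* was 0.040 (standard error 0.024, adjusted p = 0.186). By median-of-ratios it was 0.26 and as TPM -0.34, and both passed the test. Its paralogue *stab1* (ENSDARG00000076484) had 19.7 FPKM in each control MO sample, against 23.2, 25.0 and 24.4 FPKM after *nlrc3* knockdown. These groups did not overlap, and the spread was wider in the *nlrc3* MO samples, with a coefficient of variation of 3.80% against 0.101%. The rise of *stab1* was 0.29 on the log2 scale (standard error 0.046, adjusted p = 0.000891), 0.52 above the median of all tested genes, although as TPM it was at -0.083 and did not pass.

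Mannose receptor C type 1 takes up glycoproteins that end in mannose and marks venous and lymphatic endothelium in zebrafish, besides macrophages in mammals. Control MO samples 1 to 3 had 97.8, 100.3 and 101 FPKM of *mrc1a* (ENSDARG00000102100), against 99.6, 107 and 97.7 FPKM after *nlrc3* knockdown. The groups overlapped, and the log2 fold change of *mrc1a* was 0.024 (standard error 0.039, adjusted p = 0.624). By median-of-ratios it was 0.24 and as TPM -0.35, and both passed the test. Without *nlrc3* MO sample 2, the highest, it was -0.015. Lyve1 is a membrane receptor that binds hyaluronan and a common marker of lymphatic endothelium. For *lyve1b* (ENSDARG00000062483) the control MO samples had 58.6, 53.3 and 50.9 FPKM, against 46.7, 30.7 and 38.3 FPKM after *nlrc3* knockdown. Every *nlrc3* MO sample was below every control MO sample, and the 3 differed among themselves more than those of any other of the 7 genes but *prox1a* (coefficient of variation 20.7%). *lyve1b* fell by 0.51 on the log2 scale (standard error 0.14, adjusted p = 0.0137). Relative to the median of all genes this was -0.29, and by median-of-ratios the adjusted p was 0.110.

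Dab2 is an adaptor protein that links receptors of the LDL receptor family to clathrin during endocytosis, and in zebrafish its gene marks veins. For *dab2* (ENSDARG00000031761) the control MO samples had 110.2, 105 and 106 FPKM, against 147, 164 and 141 FPKM after *nlrc3* knockdown. The lowest *nlrc3* MO sample stood above the highest control MO sample by more than the spread of either group. The rise of *dab2* was 0.49 on the log2 scale (standard error 0.056, adjusted p = 0.000165), and as TPM it was 0.11 and did not pass the test.

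The transcription factor gene *nr2f2* (ENSDARG00000040926) had 32.4, 33.1 and 33.3 FPKM in control MO samples 1 to 3, against 7.18, 7.93 and 7.52 FPKM after *nlrc3* knockdown. The samples of each group lay close together and the groups far apart. *nr2f2* fell by 2.11 on the log2 scale (standard error 0.055, adjusted p = 6.61e-08), and its log2 fold change lay between -2.49 and -1.75 under all alternatives run. For *prox1a* (ENSDARG00000055158) the control MO samples had 3.13, 3.54 and 3.44 FPKM, against 0.70, 0.84 and 1.22 FPKM after *nlrc3* knockdown. Its levels were low in both groups, and the highest *nlrc3* MO sample was below the lowest control MO sample. On the log2 scale *prox1a* was at -1.80 relative to controls (standard error 0.21, adjusted p = 0.000177), with values between -2.20 and -1.19 under all alternatives run, the last of these with a pseudocount of 1. For each of the 6 genes without overlap the two-sided exact permutation p was 0.1, the smallest that 3 samples against 3 can give.

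**Figure D2:**
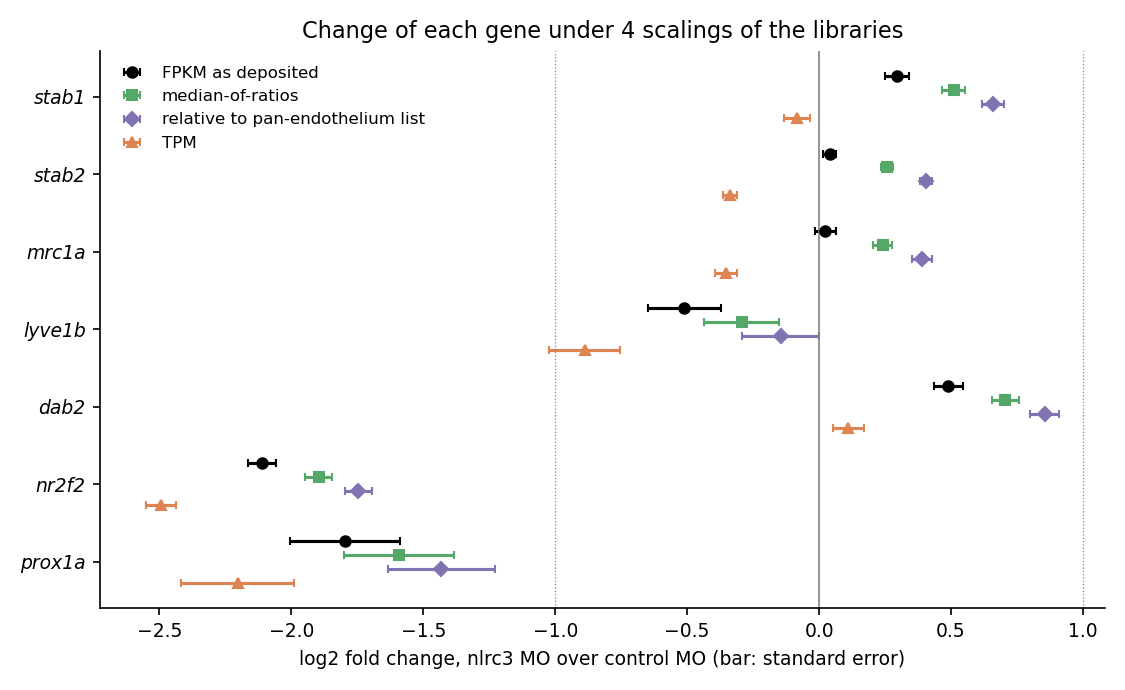
Log2 fold change of each gene (horizontal axis, *nlrc3* MO over control MO, bars are standard errors) with FPKM as deposited, by median-of-ratios, relative to the mean of a pan-endothelial list and as TPM; dotted lines mark fold changes of 0.5 and 2. *nr2f2* and *prox1a* lie beyond the lower line under the 4 scalings, and *stab1*, *stab2* and *mrc1a* lie below 0 as TPM and above 0 in the other 3.

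Ratios between the genes within a sample do not depend on how the libraries are scaled. Of the 21 pairs among the 7 genes, 19 had ratios that did not overlap between the groups, where 67.4% of all pairs of tested genes above 0 in every sample had such ratios (each with an exact two-sided permutation p of 0.1, which no adjustment over 21 pairs can lower). The pairs share genes and are not independent: every pair of *nr2f2* or *prox1a* with a receptor gene or *dab2* was among the 19. The 2 pairs that overlapped were *stab2* with *mrc1a* and *nr2f2* with *prox1a*. *stab2* was 1.67 to 1.75 times *mrc1a* in controls and 1.67 to 1.79 times after *nlrc3* knockdown. *nr2f2* was 9.34 to 10.3 times *prox1a* in controls and 6.16 to 10.3 times after knockdown. By contrast, *dab2* was 3.18 to 3.41 times *nr2f2* in controls and 18.7 to 20.7 times after knockdown, the largest log2 difference of the 21. Among the receptors, *stab1* went from between 0.115 and 0.117 times *stab2* to between 0.134 and 0.140 times, and *lyve1b* went from between 0.504 and 0.599 times *mrc1a* to between 0.287 and 0.468 times.

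Relatives of the 7 genes were compared to show how far the pattern followed gene families. Of 9 tested relatives 6 were called, all of them lower, where 20.4% of tested genes were called lower. The median log2 fold change of the tested relatives was -1.98. Of the called relatives, *nr2f1b* and *mrc2* reached 0.5 FPKM only in control MO samples and entered the test through them. In the nuclear receptor family of *nr2f2*, *nr2f5* fell from 70.2 to 4.30 FPKM in the mean (log2 fold change -4.01) and *nr2f1b* from 10.5 to 0.183 FPKM (-5.24). The closest to *nr2f2* was *nr2f1a*, which fell from 21.8 to 5.14 FPKM (-2.06). *nr2f6b* fell from 17.5 to 4.41 FPKM (-1.98), and *nr2f6a* passed the test but was not called, at 18.8 and 10.9 FPKM (-0.78). So every tested member of the family was lower, under each of the 4 other scalings too. *prox3*, a relative that RefSeq also lists under the older symbol *prox1b*, moved against *prox1a*: control MO samples had 3.23 ± 0.455 FPKM and *nlrc3* MO samples 4.79 ± 0.448 FPKM (SD, n = 3 each), 0.56 higher on the log2 scale by limma (adjusted p = 0.00764).

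Among the receptor relatives, *lyve1a* fell from 1.81 to 0.453 FPKM (log2 fold change -1.78), and *mrc1b* was at 2.44 and 1.24 FPKM (-0.94, adjusted p = 0.00395). The collagen receptor gene *mrc2*, of the same family as *mrc1a* and known from mesenchymal cells in mammals, fell from 7.98 to 0.373 FPKM (-4.11). In every sample of both groups *mrc1a* exceeded *mrc1b* and *mrc2*, and *lyve1b* exceeded *lyve1a*. The paralogues of *dab2*, *dab1a* and *dab1b*, did not exceed 0.02 FPKM in any sample.

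**Figure D3:**
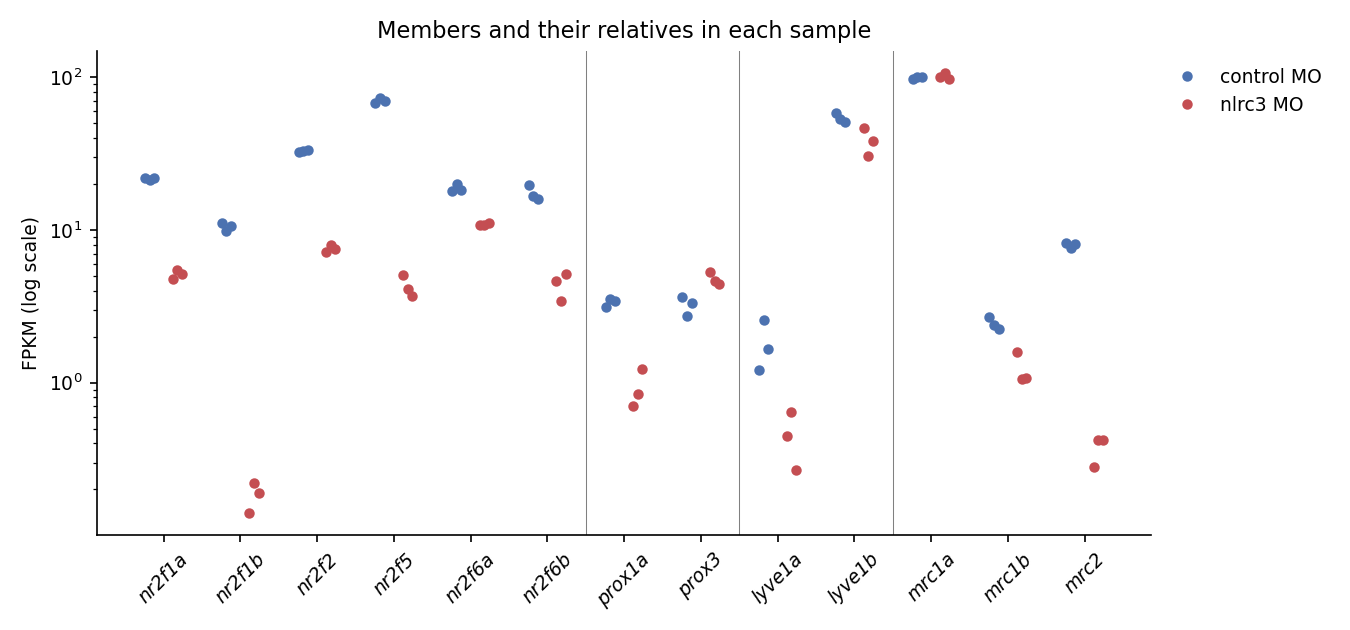
FPKM (log scale) of *nr2f2*, *prox1a*, *lyve1b* and *mrc1a* beside their tested relatives, 1 point for each of 3 control MO samples (blue) and 3 *nlrc3* MO samples (red) per gene. The 6 *nr2f* genes are lower in the *nlrc3* MO samples, *prox3* is higher at 4.79 against 3.23 FPKM, and the abundant *mrc1a* overlaps while *mrc2* drops to 0.373 FPKM.

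Of 10 listed genes of venous endothelium 9 were tested, 3 were called lower and none higher. Of all tested genes 20.4% were called lower and 4.89% higher. As TPM 4 were called lower, and relative to the pan-endothelial list 1 was. Over all 15155 tested genes these scalings gave 4620 and 2168 lower calls. The median log2 fold change of the venous list was -0.18, close to the -0.22 of all tested genes, and by median-of-ratios it was 0.039. By the mean over all 6 samples, a ranking that places genes that fell lower, the 3 most abundant did not pass the test: the venous and lymphatic receptor gene *gpr182* was at 62.7 ± 1.72 and 62.9 ± 6.48 FPKM, the apelin receptor gene *aplnrb* at 55.2 ± 0.966 and 55.4 ± 3.04 FPKM, and *flt4*, which encodes the Vegfc receptor of veins and lymphatics, at 41.4 ± 0.630 and 42.1 ± 2.14 FPKM (SD, n = 3 each). Their adjusted p-values were 0.989, 0.974 and 0.699. By median-of-ratios these 3 genes had log2 fold changes of 0.22, 0.22 and 0.24 and passed as higher. As TPM all 9 tested genes of the list were below 0 and passed. As deposited, the called genes were the neuropilin genes *nrp2a* and *nrp2b* and the ephrin receptor gene *ephb4b*. *nrp2a* fell from 36.9 to 14.2 FPKM, *nrp2b* from 56.3 to 23.8 FPKM and *ephb4b* from 26.6 to 10.4 FPKM. *ephb4a*, the other ephrin receptor gene of the list, passed the test without being called (log2 fold change -0.18). By median-of-ratios *ephb4a* was at 0.039 and did not pass, and relative to the pan-endothelial list it was at 0.19 and passed as higher.

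Of the 23 tested genes of the lymphatic programme 13 were called lower and none higher, against 20.4% and 4.89% of all tested genes. Several of these lower calls are shared: *nrp2a* and *nrp2b* with the venous list and *lyve1a* with the relatives. *foxc1a* and *foxc1b* are also in the head mesenchyme and neural crest list below. Among the lower calls, *angpt2b*, *adamts14*, *vegfd* and *tbx1* reached 0.5 FPKM only in control MO samples and entered the test through them. The median log2 fold change of the lymphatic list was -1.24. In it 7 tested genes did not pass the test: *flt4*, shared with the venous list, *mafba*, *mafbb*, *tie1*, *osr2*, *itga9* and *ccbe1*. By median-of-ratios *flt4*, *mafba*, *mafbb* and *tie1* passed as higher, and *osr2*, *itga9* and *ccbe1* did not pass. As TPM all 23 tested genes of the list were below 0 and 22 passed. By the same mean the most abundant was *sox18*, a transcription factor gene upstream of *Prox1* in the mouse, which fell from 126 to 61.9 FPKM (log2 fold change -1.03, and -0.81 by median-of-ratios, no longer below 0.5-fold). Next came *mafbb*, a transcription factor gene of lymphatic development, at 49.0 and 47.2 FPKM (adjusted p = 0.254), and *foxc1a*, a forkhead factor gene, which fell from 77.2 to 12.7 FPKM. Its paralogue *foxc1b* fell from 51.7 to 0.943 FPKM. The Hippo pathway effector gene *yap1* fell from 64.5 to 10.1 FPKM and the protease gene *adamts14*, whose product helps to process Vegfc in zebrafish, from 2.26 to 0.0600 FPKM. The angiopoietin gene *angpt2b* had 2.04 to 2.33 FPKM in the control MO samples and was listed at 0 after *nlrc3* knockdown. The ligand gene *vegfc*, named for its place in this pathway after its values were seen, was at 5.46 and 3.88 FPKM (log2 fold change -0.49, adjusted p = 0.0130). By median-of-ratios *vegfc* was at -0.28 and relative to the pan-endothelial list at -0.13, and it passed the test under neither. The listed symbol *prox1b* matched no gene of the table. *prox3*, the relative with that older symbol, is therefore not in the counts of this list, and it was higher (log2 fold change 0.56).

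Scavenger and lipoprotein receptors outside the 7 genes had 7 lower calls and 1 higher among 15 tested genes, against 20.4% and 4.89% of all tested genes. Their median log2 fold change was -0.99. The list shares *mrc1b* and *mrc2*, a lower call, with the relatives above. Of the calls, *lrp1aa* and *mrc2* reached 0.5 FPKM only in control MO samples and *marco* only in *nlrc3* MO samples. These genes entered the test only through the group where they were high. *colec12*, a scavenger receptor gene with a collectin domain, fell from 58.6 to 16.9 FPKM. The LDL receptor related genes *lrp1aa* and *lrp1ab* fell from 8.53 to 0.227 and from 10.7 to 0.923 FPKM, and *lrp5*, *vldlr* and *pla2r1* had log2 fold changes of -1.66, -1.45 and -1.19. *lrp6*, at 13.3 and 7.28 FPKM, and the lysosomal receptor gene *scarb2a*, at 39.5 and 19.9 FPKM, passed the test without being called. The higher call was *marco*, a scavenger receptor gene of macrophages, at 0.140 ± 0.0557 and 1.27 ± 0.187 FPKM (SD, n = 3 each).

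Dab2 couples its receptors to the clathrin machinery. Of 43 tested genes of clathrin endocytosis 21 passed the test as higher and 15 as lower, against 20.2% and 42.9% of all tested genes. Called were 3 higher and 6 lower, which is 6.98% and 14.0%, against 4.89% and 20.4% of all tested genes. The median log2 fold change was 0.12 (-0.25 as TPM). The balance of calls moved with the scaling, as it did over all tested genes. As TPM none were higher and 10 lower, where all 15155 tested genes gave 295 and 4620. Relative to the pan-endothelial list 11 were higher and 5 lower, where all tested genes gave 1620 and 2168. As deposited, the higher calls were *ap2m1a*, *fcho1* and *rab5b*, and the lower calls were *epn3a*, *picalmb*, *myo6a*, *numbl*, *cltcl1* and *ldlrap1a*. Ranking by the mean over all samples favours genes that rose. The 3 most abundant by the mean over all samples were higher: *ap2m1a*, a subunit gene of the AP2 adaptor, at 294 ± 40.7 and 670.2 ± 143 FPKM (SD, n = 3 each), the clathrin heavy chain gene *cltca* at 122 and 210.3 FPKM, and the early endosome gene *rab5c* at 101 and 161 FPKM. The log2 fold changes were 1.18, 0.78 and 0.67, each with an adjusted p under 0.05, and *dab2* at 0.49 moved in the same direction by less.

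In the arterial list 9 of 16 tested genes were called lower and none higher, against 20.4% and 4.89% of all tested genes. The median log2 fold change of the list was -1.31. Its most abundant genes by the mean over all samples were the junction gene *cldn5b* (99.0 and 64.8 FPKM, not called), *esm1* (51.7 and 14.6 FPKM) and the arterial ligand gene *efnb2a* (37.3 and 10.6 FPKM). *dlc* and *dll4* had log2 fold changes of -2.06 and -1.55. By other measures the study reported no such fall: *dll4*, *ephrinB2*, *kdrl* and *deltaC* (*dlc*) were unaltered by qPCR, whose time is not given in the sources used here. Whole-mount in situ hybridization of *kdrl* and *dlc*, in embryos rather than sorted cells and at an earlier time, showed it no notable vascular abnormality. Confocal imaging of a *kdrl* reporter line at 28 hpf, the time of the sort, showed the study no alteration either. Its discussion also calls *deltaC*, *deltaD* and *notch3* largely unaltered after *nlrc3* silencing, without naming the measure there. Here *notch3* had a log2 fold change of -1.51, and *kdrl* one of -0.39 without being called. From its own RNA-seq the study reported Notch family genes as lower by differing amounts, above all *notch1a* and *hey1*. In the pan-endothelial list 7 of 33 tested genes were called lower and 1 higher, with a median of -0.14 that was 0.077 by median-of-ratios. The gene *fli1a*, whose promoter was used for the sort, fell from 205 to 90.6 FPKM, and *tal1* and *lmo2*, which endothelium shares with blood cells, stood at 114 and 187 and at 91.4 and 187 FPKM. Relative to the mean of the tested pan-endothelial genes, the log2 fold changes were 0.66 for *stab1*, 0.41 for *stab2*, 0.39 for *mrc1a* and 0.85 for *dab2*, all with an adjusted p under 0.05. On that scale *lyve1b* was at -0.15 (adjusted p = 0.404), *nr2f2* at -1.75 and *prox1a* at -1.43. The list itself had a median of 0.23 there, as its mean lay below its median, and all tested genes had one of 0.14. The p-values on that scale do not count the spread of the pan-endothelial genes, from -2.21 to 1.03 as deposited. The difference in median between the venous and arterial lists was not tested.

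**Figure D4:**
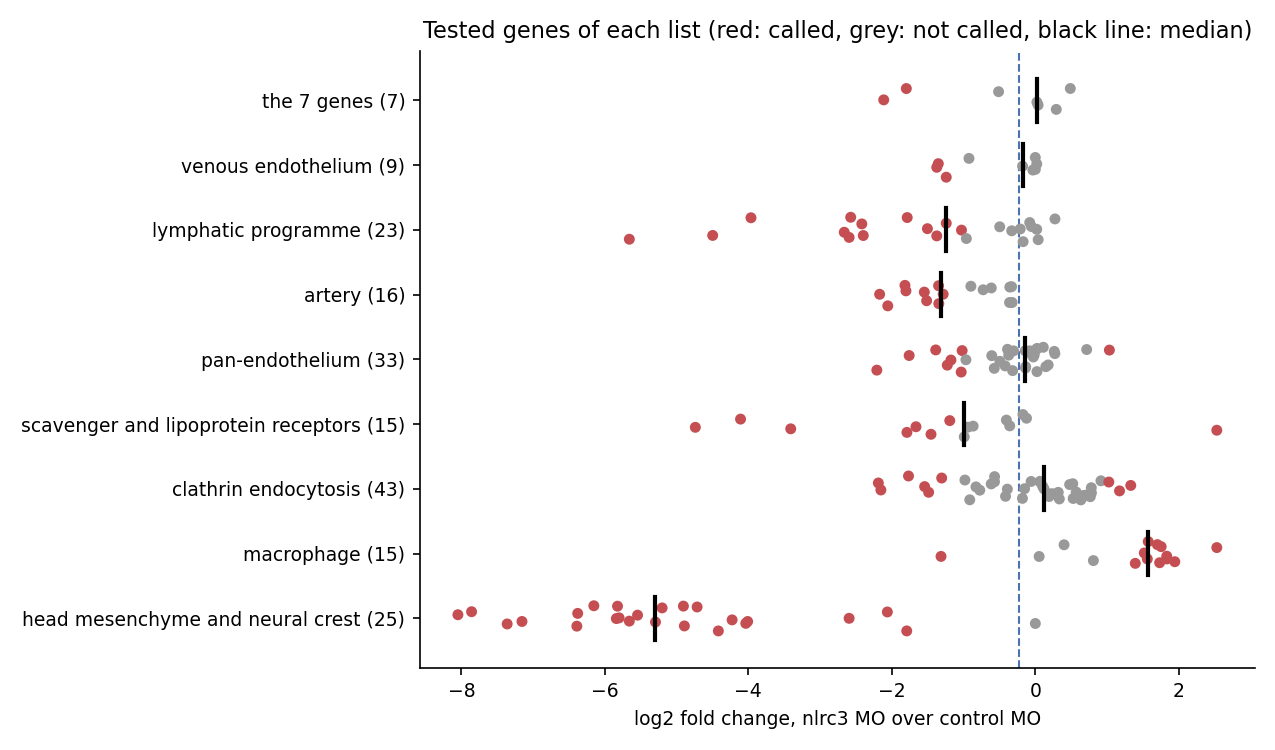
Log2 fold change (horizontal axis) of every tested gene of 9 lists, red where called and grey where not, with the median of each list as a black line and the median of all tested genes, -0.22, as a dashed line; the number of tested genes is in brackets. The 7 genes spread from -2.11 to 0.49, the head mesenchyme and neural crest genes have a median of -5.29 and the macrophage genes one of 1.58.

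Marker genes of other cells moved in the same samples. Of 25 tested genes of head mesenchyme and neural crest 24 were called lower, *foxd3* being the exception, against 20.4% of all tested genes. Some of the 24, *alx1* and *dlx1a* among them, reached 0.5 FPKM only in control MO samples. The median log2 fold change of the list was -5.29. This list, which holds *nr2f1a*, *nr2f5*, *foxc1a* and *foxc1b* as well, had 1296 to 1314 FPKM in all per control MO sample and 45.03 to 45.66 FPKM after *nlrc3* knockdown, and none of its genes was at 0 in all 6 samples. Its leading genes *twist1a*, *sox9a* and *dlx2a* had means of 233, 139.8 and 103 FPKM in controls, with log2 fold changes of -6.39, -4.90 and -7.36. *nr2f2* is known to be active in head mesenchyme as well as in veins, and the part of these cells in the fall of *nr2f2* was not tested. In the *nlrc3* MO samples *nr2f2* kept 0.229 of its control level and the summed list 0.0346.

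Macrophage markers moved the other way. Of 15 tested genes 11 were called higher and 1, *irf8*, lower, against 4.89% and 20.4% of all tested genes. The list had 119.8 to 127 FPKM in all per control MO sample and 357 to 381 FPKM after *nlrc3* knockdown. The leading genes *lcp1*, *coro1a* and *mfap4* were at 44.2, 32.1 and 17.2 FPKM and at 158, 92.0 and 58.2 FPKM. In the same samples *mrc1a*, a macrophage gene in mammals, was at 1.02 times its control level and *stab1*, which mammalian macrophages also express, at 1.23 times. The part of macrophages in the rise of *stab1* was not tested. In embryos rather than sorted cells, and at other times, the study reported the opposite for macrophages. There *mfap4* staining and the *mpeg* reporter were reduced when *nlrc3* was deficient. Of the other lists, erythroid genes had 10 higher calls among 13 tested, led by *hbbe3*, *hbae3* and *urod*, with a median of 1.16. As TPM they had 3 higher calls, against 295 of all 15155 tested genes, and a median of 0.78.

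*prox1a* is also known from lens, liver, slow muscle and neural cells. Beside the counts that follow, 20.4% of all tested genes were called lower and 4.89% higher. The lens list had 5.48 to 6.67 FPKM in all per control MO sample and 5.89 to 6.85 FPKM after *nlrc3* knockdown, with *crygn2* and *cryba4* its tested genes, neither called, and 4 of its genes, *cryaa* among them, at 0 in all samples. The liver list, 54.2 to 62.9 and 48.5 to 61.9 FPKM, was almost all *hhex*, which endothelium expresses too (52.7 and 51.9 FPKM). Of its 4 tested genes only *prox1a*, a gene of this list as well, was called, *foxa3* was not, and *fabp10a* was at 0 in all samples. The slow muscle list, with 2 lower and 1 higher calls among 7 tested genes, summed to 74.2 to 79.7 and 39.0 to 42.4 FPKM. There *prdm1a*, which neural crest also expresses, fell from 52.8 to 6.47 FPKM, while *smyhc1*, a slow myosin gene, was at 4.02 and 7.98 FPKM and *myl10* at 9.21 and 16.1 FPKM. The other calls of that list were *slc25a4* and *smyhc2*. Neural genes had 8 lower calls among 15 tested, none higher, and summed to 32.6 to 37.2 and 11.9 to 14.1 FPKM, led by *sox3*, *gap43* and *fabp7a*. The part of these cells in the fall of *prox1a* was not tested. For *dab2*, which kidney tubules also use, the pronephros list summed to 41.8 to 45.7 and 64.0 to 65.2 FPKM, with 2 higher calls and 1 lower among 6 tested genes. Its endocytic genes *cubn*, *lrp2a* and *amn* did not exceed 0.34 FPKM in any sample, while *slc20a1a*, its most abundant, which with *cdh17* made up the higher calls, rose from 18.5 to 38.5 FPKM, *trpm7* was at 10.8 and 17.3 FPKM and *gata3* fell from 10.5 to 2.75 FPKM. The part of kidney cells in the rise of *dab2* was not tested.

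Genes with the most similar pattern were sought among those within a factor of 2 of each member's mean level, by the Euclidean distance over the 6 samples between log2(FPKM + 0.1) values centred on the control MO mean. The nearest to *nr2f2* was *nr2f1a*, at a distance of 0.109 among 3574 candidates, followed by *fzd7b*, a Wnt receptor gene, at 0.122. The nearest to *mrc1a* was *rasip1*, a gene of endothelial lumen formation, at 0.0424 among 802, followed by *cops2*. For *stab1* these were *dennd2c* and *espl1*, for *stab2* *hypk* and *vcp*, and for *dab2* the spectrin gene *sptan1* and *ehd1b*, a gene of endocytic recycling. *lyve1b* was followed least closely among the receptors, with *nup85* at 0.186 and *puf60b* at 0.251, and *prox1a* had *caskin1* at 0.188 and the lysosomal enzyme gene *naglu* at 0.302. With 6 samples in 2 groups, this distance mainly reflects the size of the group difference.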

How the data were processed

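RNA sequencing covered sorted EGFP+ cells of 3 control MO and 3 *nlrc3* MO samples, grouped by the morpholino in the labels. Per their methods, the authors used HISAT2 for alignment to the zebrafish genome of Ensembl and StringTie for assembly, and deposited FPKM of 32057 genes, rounded to 2 decimals. The submitters' processing notes instead name Bowtie and the mouse build mm8. Columns are named S and Mo with a number. S was read as the standard morpholino, the methods' name for the control, and Mo as the *nlrc3* morpholino, so every direction rests on this reading. The authors' own fold changes and p-values were not used. How reads shared between similar genes were counted is not given in the sources used here.

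A gene was kept if 3 or more samples reached 0.5 FPKM, which left 15155 genes, all 7 described here among them. A gene could pass this filter through a single group, and its call then rests on the group where it was high. The fit was limma 3.58.1 in R 4.3.3 (lmFit, eBayes with a trend) on log2(FPKM + 0.1), tested on simulated data, with Benjamini-Hochberg adjustment over all tested genes. Passing the test meant an adjusted p under 0.05, and called genes also had a fold change above 2 or below 0.5, the study's limits. Python 3.11.15 with pandas 2.3.3 served for the tables and matplotlib 3.10.9 for the figures.

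FPKM hold no read totals. Over all pairs of samples, a single ratio was shared by at most 2.38% of genes with low values, so no steps of whole reads were seen and depth is unknown. The SD given is the spread between 3 samples. The standard errors and p-values of limma pool both groups and also borrow variance from the other genes. For *stab2* the standard error was 0.024 with the trend and 0.050 without it.

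The 7 genes and all lists were chosen with earlier results of these data known. Lists covered relatives of the 7 genes, venous, lymphatic, arterial and pan-endothelial genes, scavenger and lipoprotein receptors, clathrin endocytosis, and macrophage, head mesenchyme and neural crest, pronephros, lens, liver primordium, slow muscle, neural and erythroid cells, with Gene Ontology terms as deposited. The table cuts symbols at a point (*mpeg1*), and such genes were left unmatched. Named were the 7 genes, all tested relatives, the 3 tested genes of each list and term with the highest mean FPKM over the 6 samples (the most abundant), and the called genes of the venous, lymphatic and scavenger lists, or, where over 10 were called, the 5 with the largest change among those reaching 2 FPKM in a group mean. The 2 genes nearest to each of the 7 in pattern were added. Other genes named were chosen after their values were seen. Alternatives were other pseudocounts, filters, thresholds and scalings, a replicate block, no trend and leaving out each sample.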

Additional observations from a re-analysis of the deposited data

How the results depend on the processing

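The results turned mainly on how the libraries were scaled. As TPM, *stab1*, *stab2* and *mrc1a* reversed to log2 fold changes of -0.083, -0.34 and -0.35, and *dab2* at 0.11 no longer passed an adjusted p of 0.05. By median-of-ratios *stab2* and *mrc1a* passed at 0.26 and 0.24 and *lyve1b* at -0.29 did not, and relative to the pan-endothelial list the values were 0.41, 0.39 and -0.15. TPM divides each library by its FPKM sum, which was higher in the *nlrc3* MO samples. Haemoglobin genes took 15.6% to 15.7% of that sum in control MO samples and 34.5% to 34.8% in *nlrc3* MO samples. Scaled by the sum without haemoglobin genes, *stab1*, *stab2* and *mrc1a* were at 0.28, 0.030 and 0.014 and *dab2* at 0.48. Why the sums and the haemoglobin share differed was not tested. *nr2f2* and *prox1a* kept their direction, adjusted p and fold change limit under the 16 alternatives run for each. Leaving out each sample in turn gave 0.27 to 0.32 for *stab1*, 0.025 to 0.052 for *stab2*, -0.66 to -0.36 for *lyve1b*, -0.015 to 0.050 for *mrc1a*, 0.43 to 0.54 for *dab2*, -2.15 to -2.08 for *nr2f2* and -2.00 to -1.64 for *prox1a*. The count of called genes, 3832, was 2298 with a pseudocount of 1 and 9558 without the fold change limit. It was 3724 to 3763 with an *nlrc3* MO sample left out and 2927 to 2956 with a control MO sample left out. The filter still asked for 3 samples at 0.5 FPKM. Genes that reached this only in controls therefore left the test with a control MO sample, and 14166 to 14177 genes remained. The lower calls of the venous and lymphatic lists together, 14 of 29 tested, were 13 by median-of-ratios, 16 as TPM and 11 relative to the pan-endothelial list. Over all 15155 tested genes the lower calls were 3091 as deposited (20.4%), and 2510, 4620 and 2168 under these scalings. The pan-endothelial list had 4 lower calls by median-of-ratios, 8 as TPM and 3 on its own scale, the slow muscle list had 3 higher calls by median-of-ratios and none as TPM, and the neural list had 12 lower calls as TPM. Same-numbered samples of the groups did not deviate together (correlations of -0.0034 to 0.040 over genes). This cannot show whether they were prepared together, and the labels state no pairing. With the replicate block 3845 genes were called, and no result of the 7 genes changed sides. FPKM carry no depth, so counting error cannot be given, and the low levels of *prox1a* rest on an unknown number of reads.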

Other observations

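Gene Ontology terms as deposited gave other views of the same functions. Of the 28 tested genes of lymphangiogenesis, which include *nr2f2* and *prox1a*, 14 were called lower and none higher, with a median log2 fold change of -0.98, against 20.4% lower calls among all tested genes. Lymph vessel development held 11 lower calls and 1 higher among 17 tested genes, led by the AP-1 genes *junbb* (1182 and 159.7 FPKM in the control MO and *nlrc3* MO samples) and *junba* (606 and 50.03 FPKM). Of the 12 tested genes of hyaluronic acid binding, the term that *stab1*, *stab2* and *lyve1b* share, 3 were called, all lower, which is 25.0%, and the median was -0.25. Steroid hormone receptor activity, the term of *nr2f2*, held 18 lower and 2 higher calls among 45 tested genes, with the retinoic acid receptor gene *rarga* at 47.6 and 9.17 FPKM. Clathrin-coated pit had a median of 0.19 over 15 tested genes, with 4 lower calls and 1 higher. Receptor-mediated endocytosis, which includes *dab2*, had 9 lower and 2 higher calls among 30, and endocytosis 12 and 6 among 76. Venous blood vessel development had 4 lower calls among 8, venous blood vessel morphogenesis 1 higher call among 5, and scavenger receptor activity 7 lower and 1 higher among 18. Among the most abundant genes of these terms, *mmp2*, a matrix protease gene (55.9 and 17.0 FPKM), *spry2*, a growth factor signalling inhibitor gene (58.3 and 8.23 FPKM), and *loxl2b*, a lysyl oxidase gene (18.4 and 0.720 FPKM), were called lower. *cad* (78.3 and 40.8 FPKM) and *meis1b* (29.9 and 15.05 FPKM) passed the test as lower without being called, and *mcamb* (66.9 and 81.2 FPKM), *cltcb* (28.3 and 32.3 FPKM), *clta* (82.2 and 156 FPKM), *ap2a1* (90.4 and 141 FPKM) and *ap1b1* (65.1 and 126 FPKM) as higher. *isl2a*, *scarf1* and *hmmr* had log2 fold changes of -0.29, -0.12 and -0.047 and did not pass. These terms are counts beside the background and were not tested as sets.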
